A study of Drosophila melanogaster with 3 samples.

Results

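Exonic peaks away from promoters were the Nf-YB-GFP peaks whose summit lay in an annotated exon and more than 500 bp from every annotated transcription start site (TSS). They numbered 1789 of the 30000 peaks of the list that the authors called on all replicates pooled, or 5.96%. Of these 1789, 191 also stood in the authors' optimal list of 6221 reproducible peaks. Each summit was placed in 1 class, in the order 5' UTR, coding sequence, 3' UTR and noncoding exon. The classes held 259, 754, 441 and 335 pooled peaks, and 45, 36, 44 and 66 optimal peaks, respectively. The comparison set was the 19042 pooled peaks (3228 optimal) that also lay more than 500 bp from every TSS, but in introns or between genes. It was not matched for TSS distance. The median distance to a TSS was 3568.5 bp in this set and 1511 bp for exonic members (3003 and 1415 bp for optimal peaks).

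The peaks came from chromatin immunoprecipitation with sequencing on whole Drosophila melanogaster embryos of mixed sex, collected from 0 to 24 h of age. The embryos carried a stably expressed transgene that joins GFP to the C-terminus of Nf-YB, and the precipitation used an antibody to GFP. Chromatin was sonicated to fragments of 200 to 800 bp. There were 3 biological replicates with 1 technical replicate each, all of 1 group (strain Nf-YB-GFP), so differences were measured between replicates, between exon classes and against other sequence far from TSSs. Chromatin of all embryonic tissues and stages was mixed, so a peak in few cells and a weak peak in many cells cannot be told apart.

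Nf-YB is a histone-fold subunit of NF-Y, a trimer known to bind the CCAAT box, most often in promoters. Exons can hold enhancers as well as protein-coding sequence, and the 5' UTRs of developmental genes can be long or split over several exons, so that a 5' UTR base can lie far from the start site. GAGAG is the core of the element bound by GAGA factor, a Drosophila protein known for opening chromatin at promoters and enhancers.

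Sequences at the summits are shown to let the match to the CCAAT box be read directly. Each run has 25 bases of dm6, read from the RefSeq copy of the assembly on the strand where the motif reads CCAAT. The motif nearest the summit is in capitals. The highest-ranked optimal peaks with CCAAT within 50 bp of the summit are given per class, from 5 of the 6 chromosome arms. This choice was made after the values were seen. The first 6 are in 5' UTRs.
disco-r, chrX:16147956-16147980, plus strand: tgcctttcgaCCAATgacactcgac
pros, chr3R:11372057-11372081, plus strand: gaaaaagcagCCAATccgaggaagc
drm, chr2L:3545291-3545315, plus strand: tcttcaccgaCCAATcagccaagaa
Tango5, chrX:10763366-10763390, plus strand: tacttgagcaCCAATaaaatgaatc
CG4839, chr2L:10146843-10146867, plus strand: gattcgtagaCCAATcacaatcgaa
Dlic, chrX:11155058-11155082, plus strand: atcccgtttcCCAATtggacccagc
The next 6 are in coding sequence, where the same bases also spell amino acids.
Ets21C, chr2L:548170-548194, plus strand: ccttgggcaaCCAATcggtgcgagg
Sec16, chrX:12601599-12601623, plus strand: ataacccaagCCAATgaattccatc
ftz, chr3R:6865099-6865123, minus strand: cgatgtgcgaCCAATtgaaatcgcc
mid, chr2L:5466431-5466455, plus strand: ttggccagcgCCAATcagcaagctg
Sox21a, chr3L:14106691-14106715, minus strand: cattaagcgaCCAATgaacgctttc
lz, chrX:9288367-9288391, minus strand: tgttggagcgCCAATgggcgggcag
In 5 of these 6 coding sequences CCAAT is followed by C or G and then A or G, and in the 5' UTR sequences this holds for disco-r, drm and CG4839. The highest-ranked such peak of 3' UTRs and of noncoding exons on these 5 arms is shown for comparison. In both the next bases differ from that form. This does not hold for the strongest noncoding peak with CCAAT, lncRNA:CR45324 (pooled rank 113), on the arm left out. It had that form within 50 bp of its summit, whereas the noncoding peak shown stood at pooled rank 133.
CG16989, 3' UTR, chrX:796623-796647, minus strand: tttccagttaCCAATtgaccaatag
lncRNA:CR46003, noncoding exon, chr3L:10289497-10289521, minus strand: tcgctcgtcaCCAATagcaacccct
Across the 51 optimal members on these arms that had the motif in this window, its centre lay a median of 19 bp from the summit. It lay within 25 bp in 34 of them. Only motifs wholly within 50 bp were kept and the nearest was measured, so these distances were bounded. The distance under random placement was not computed.

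The GAGAG runs at the 4 strongest 5' UTR summits are shown likewise, with GAGAG in capitals on the strand where it reads so. The copy nearest the summit is the one shown.
srp, chr3R:15993311-15993335, plus strand: ctgatgtagtGAGAGgcggagcaac
disco-r, chrX:16147889-16147913, minus strand: ttattagaacGAGAGagagtgggca
pros, chr3R:11372126-11372150, plus strand: cgaaatcatcGAGAGctgagaagcg
CG32532, chrX:19546096-19546120, minus strand: caggaacggcGAGAGggagaggcac
Summits of disco-r and pros therefore had both motifs within 50 bp.

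Coding sequence away from promoters held few peaks for its length, and untranslated and noncoding exons differed widely. Eligible sequence (over 500 bp from every TSS) came to 18.4 Mb of coding sequence, 5.93 Mb of 3' UTR, 1.04 Mb of 5' UTR and 1.07 Mb of noncoding exon, beside 89.1 Mb of intron and intergenic sequence. In the optimal list, coding sequence had 1.96 peaks per Mb and intron and intergenic sequence 36.2 per Mb, which is 18.5 times more. The 3' UTRs had 7.43 optimal peaks per Mb, 4.88 times fewer than intron and intergenic sequence. The 5' UTRs (43.1 per Mb) and noncoding exons (61.9 per Mb) had 1.19 and 1.71 times the density of intron and intergenic sequence. In the pooled list the coding deficit was smaller, at 41.0 against 214 peaks per Mb, or 5.22 times.

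The replicate lists, each classed by the same rule, gave the spread of these densities. Replicates 1, 2 and 3 held 1291, 1615 and 485 coding summits among 30000 peaks each. Replicate 3 thus had the fewest coding peaks, and its count was lowest in every other exon class too, by less. Its 3' UTR count was 425, against 546 and 518. Its 5' UTR count (254, against 263 and 276) and noncoding exon count (321, against 360 and 367) stood closer to the others. The log2 ratio of coding to intron and intergenic density was -1.94 ± 0.99 (SD, n = 3), below 0 in 3 of 3 replicates. For 3' UTRs it was -1.32 ± 0.25, for 5' UTRs 0.28 ± 0.12 and for noncoding exons 0.65 ± 0.17. In each class every replicate lay on the same side of 0, but the two-sided exact sign-flip permutation test over 3 replicates cannot go below p = 0.25, the value found for each class, so none of these passes 0.05.

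Restricting each replicate to its 6221 strongest peaks, the length of the optimal list, left 48, 54 and 24 coding summits. The log2 ratio for coding sequence was then -4.06 ± 0.61 (SD, n = 3), for 3' UTRs -2.30 ± 0.13, for 5' UTRs 0.28 ± 0.26 and for noncoding exons 0.94 ± 0.16. The 5' UTR value of replicate 3 was 0.0024, so the 5' UTR density there equalled that of intron and intergenic sequence.

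**Figure D1:**
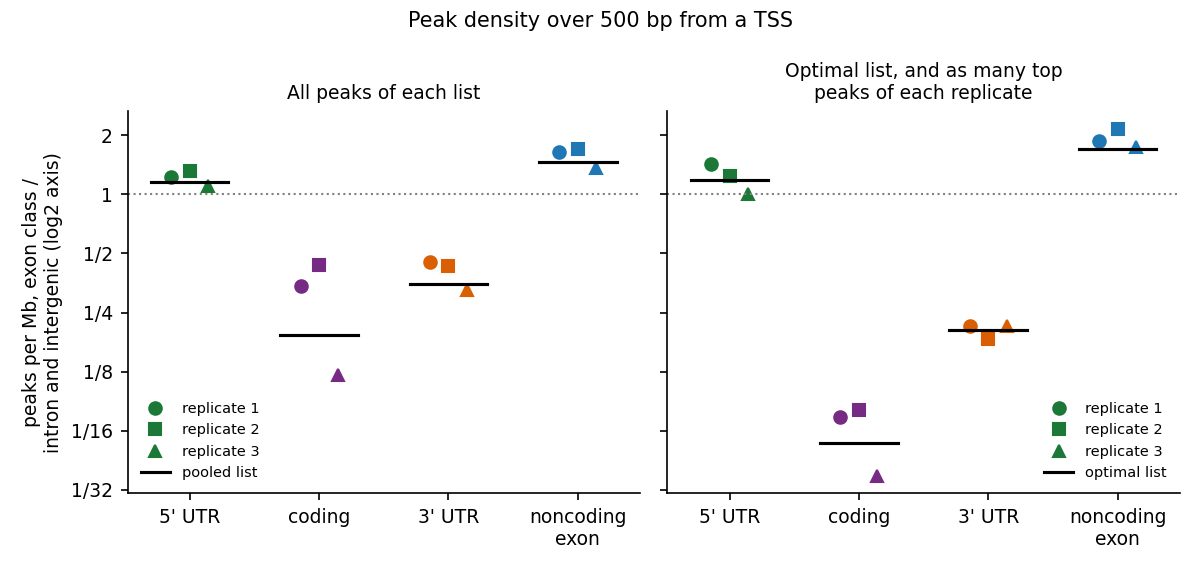
Ratio of peaks per Mb in each exon class to peaks per Mb in intron and intergenic sequence, on a log2 axis, with 1 symbol per replicate and a line for the pooled list (left) or the optimal list (right). Coding sequence lies below the dotted line of equal density in all 3 replicates and is lowest in replicate 3, whereas noncoding exons lie above it.

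Base composition stood beside these densities and its part in them was not tested. Eligible coding bases were 53.4% G or C, 3' UTR bases 35.2%, 5' UTR bases 45.7%, noncoding exon bases 42.0% and intron and intergenic bases 40.2%. The median G and C content of the 101 bp around optimal summits was 55.4% for coding members, 41.6% for 3' UTR members, 47.5% for 5' UTR members and 45.5% for noncoding members. Within coding members, those with a counterpart in replicate 3 had a median of 54.5% and those without one 56.4%. The order was reversed in replicate 1 (56.4% with and 55.4% without) and in replicate 2 (57.4% with and 54.5% without). Intron and intergenic peaks gave the same pattern, with 39.6% and 43.6% in replicate 3 and 41.6% and 40.6% in replicates 1 and 2.

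The same classes differed in how many of their pooled peaks stood in the optimal list. Over all pooled peaks this share was 20.7%, and over intron and intergenic peaks 17.0%. Of all exonic members 10.7% (191 of 1789, exact 95% Clopper-Pearson interval 9.28 to 12.2%) were optimal. The share was 17.4% (13.0 to 22.5%) in 5' UTRs, 4.77% (3.37 to 6.55%) in coding sequence, 9.98% (7.34 to 13.2%) in 3' UTRs and 19.7% (15.6 to 24.4%) in noncoding exons. The coding and 3' UTR intervals lay below both backgrounds, and those of 5' UTRs and noncoding exons included them. These intervals cover the counting of peaks only.

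Signal ranks, from 1 for the highest signal of the pooled list, followed this order. The signal is the authors' own score for each peak and was used only to rank and describe peaks within a list. The optimal list consisted of the 6221 pooled peaks of highest signal, so rank and optimal status are 1 measure seen in different ways. Median ranks were 14735 for noncoding exons, 15740 for 5' UTRs, 19053 for 3' UTRs and 22968.5 for coding members, beside 16722.5 for intron and intergenic peaks. Of coding members 82.0% ranked below place 15000, against 55.9% of intron and intergenic peaks. Strong peaks were few: 3 members ranked in the first 100 of the pooled list, 17 in the first 500 and 27 in the first 1000. The best ranks were 58 in a 3' UTR, 86 in a 5' UTR, 113 in a noncoding exon and 347 in coding sequence.

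**Figure D2:**
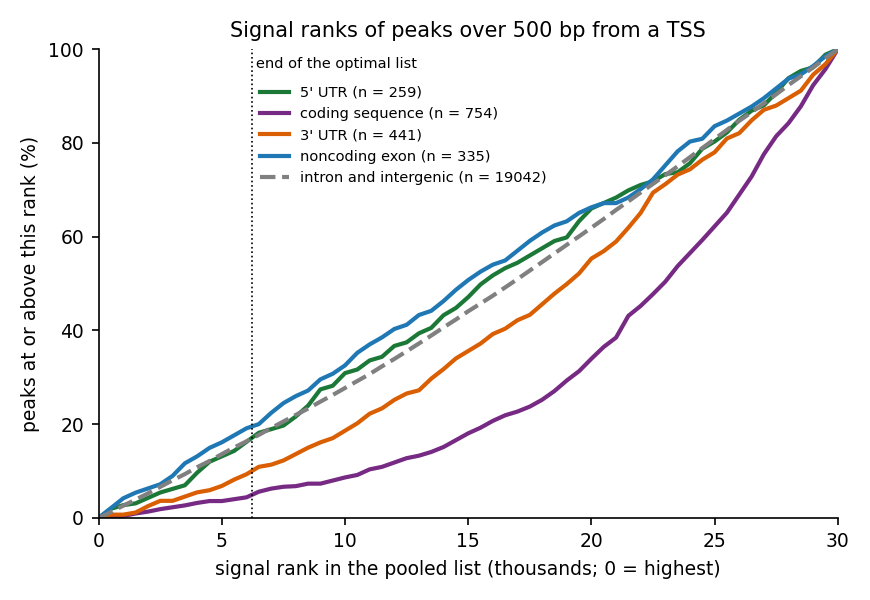
Cumulative share of peaks (%) at or above each signal rank of the pooled list (in units of 1000, low is strong) for the 4 exon classes and for intron and intergenic peaks. The coding curve runs lowest, with 4.77% of its 754 peaks before the dotted line at the end of the optimal list, against 19.7% for noncoding exons.

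Recovery in single replicates was scored as a replicate summit within 100 bp of the pooled summit. In all 3 replicate lists, 33.6% of all pooled peaks and 30.8% of intron and intergenic peaks were found. Of exonic members 394 (22.0%, interval 20.1 to 24.0%) were found in all 3, 590 in 2, 658 in 1 and 147 in none. By class the number found in all 3 was 83 of 259 in 5' UTRs (32.0%), 96 of 754 in coding sequence (12.7%), 96 of 441 in 3' UTRs (21.8%) and 119 of 335 in noncoding exons (35.5%). Eligible bases that lay within 100 bp of a summit in all 3 lists made up 1.39%, 0.0852%, 0.277% and 1.90% of these classes.

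Coding recovery differed most between replicates. Coding members were found in replicate 1 in 59.4% of cases, in replicate 2 in 52.4% and in replicate 3 in 35.1%. For noncoding exons the shares were 66.3%, 66.0% and 66.0%, for 5' UTRs 67.2%, 58.7% and 64.9%, and for 3' UTRs 62.6%, 51.7% and 56.7%. Replicate 3 was thus low for coding sequence, and replicate 2 was lowest for both kinds of UTR. Of the coding members, 148 were found in replicates 1 and 2 without replicate 3, beside 96 found in all 3. Without replicate 3, 38.2% of all exonic members were found in both remaining lists.

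Among the optimal members, recovery was higher and more even. The optimal list was chosen for reproducibility in these same replicates, so high recovery in them was built in. In all 3 replicates 167 of 191 (87.4%, interval 81.9 to 91.8%) were found, close to 85.9% of all optimal peaks. This came to 39 of 45 in 5' UTRs, 32 of 36 in coding sequence, 37 of 44 in 3' UTRs and 59 of 66 in noncoding exons. Median replicate ranks of the 167 were 2925, 2887 and 4020 in replicates 1, 2 and 3. Replicate 3 gave the weakest rank for 99 of them, replicate 2 for 41 and replicate 1 for 27, and for the 32 coding members replicate 3 was weakest in 25. Spearman's rho of the ranks over the 167 peaks was 0.84 between replicates 1 and 2, 0.64 between 1 and 3 and 0.63 between 2 and 3. These correlations are across peaks, which share libraries and are not replicates.

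**Figure D3:**
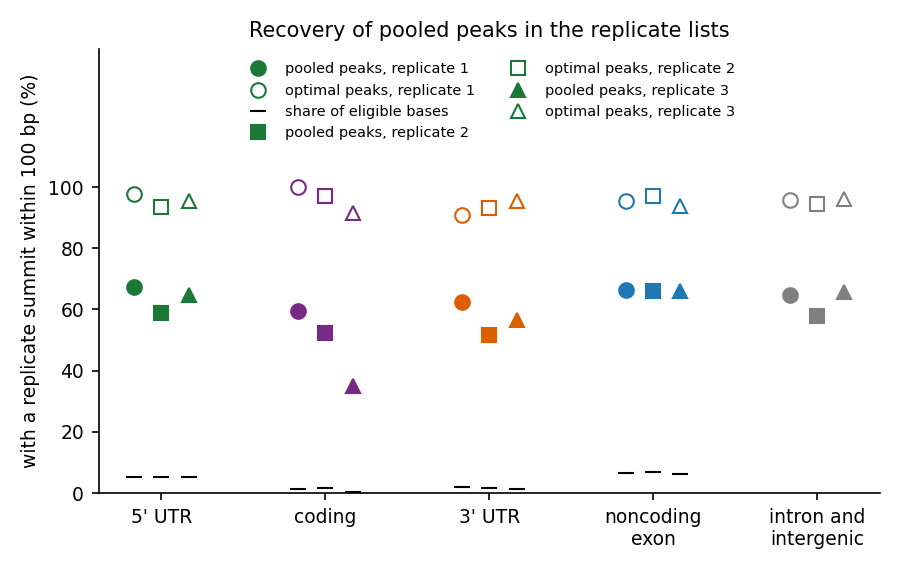
Percent of peaks with a replicate summit within 100 bp, by class and replicate, for pooled peaks (filled) and optimal peaks (open), with the share of eligible bases within that distance as dashes. Coding pooled peaks fall to 35.1% in replicate 3, while noncoding exon peaks lie at 66.0 to 66.3% in all 3.

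Several of the strongest 5' UTR members lay in genes that encode regulators of embryonic cell fate. The peak of srp (FBgn0003507), a GATA factor of fat body, blood and endoderm, lay at chr3R:15992883-15993672, 837 bp from the nearest TSS, and ranked 74, 79 and 87 in replicates 1, 2 and 3. Its signal was 40.0 times the median of the optimal list, and its interval reached past the exon. The disco-r peak (chrX:16147417-16148684, FBgn0285879, a zinc finger factor) was 33.7 times that median and ranked 140, 104 and 77. All replicates thus placed both peaks in their strongest 140. The pros peak (chr3R:11371690-11372987, FBgn0004595), in a homeodomain factor of neuroblast daughters, ranked 223, 230 and 232. The peak in drm (chr2L:3544975-3545701, FBgn0024244), a zinc finger factor of the odd-skipped family, ranked 363, 353 and 255 and lay 5560 bp from a TSS. CG32532 (chrX:19545757-19547272) ranked 277, 317 and 290. A peak at chr2R:19456576-19457240 lay in 5' UTRs of both mei-W68, the fly Spo11 that makes meiotic breaks, and par-1, a polarity kinase, so its host is uncertain. It ranked 580, 514 and 595, with little spread between replicates.

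Coding members were weaker, and the intervals of 5 of the 6 strongest reached past their exon. The trh peak (chr3L:371203-371699, FBgn0262139), in the bHLH-PAS factor of the tracheal system, ranked 302, 404 and 454. Its summit lay 2 bp from the edge of an exon of 68 bases, so most of its 497 bp was outside coding sequence. Ets21C (chr2L:547916-548463, FBgn0005660, an ETS factor) ranked 473, 509 and 296, with its summit 31 bp from an exon edge. These were the strongest coding members, and their replicates gave similar ranks. The gsb-n peak (chr2R:25051374-25051706), in a Pax factor of the embryonic nervous system, ranked 779, 755 and 2326. CG5225 (chr3R:17029857-17030244) ranked 920, 970 and 1478, and its interval lay inside the exon. Replicate 3 was weakest for both. Sec16 (chrX:12601455-12601781), a protein of endoplasmic reticulum exit sites, ranked 1237, 1244 and 1129. The peak in ftz (chr3R:6864928-6865205), the pair-rule homeodomain gene, ranked 990, 1221 and 3597, again weakest in replicate 3.

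Among the 3' UTR members, tio held the strongest of all 1789 peaks. The tio peak (chr2L:22024241-22024929, FBgn0028979), in a zinc finger gene related to teashirt, lay 5298 bp from a TSS and ranked 75, 76 and 42, at 49.6 times the optimal median. It had neither CCAAT nor GAGAG within 50 bp of its summit. Lim1 (chrX:8757739-8758337, FBgn0026411), a LIM homeobox gene, ranked 422, 461 and 356 and lay 27388 bp from the nearest TSS, the farthest of the 44 optimal 3' UTR members. The 3' UTR peak of Cals (chr4:1113168-1113450), the calsyntenin gene, ranked 1023, 3489 and 884 and was weakest in replicate 2. The other 3 named 3' UTR peaks were weakest in replicate 3. Of them dve (chr2R:22286024-22286288), a homeobox gene, ranked 1214, 1185 and 2470. CG9926 (chr3R:13949637-13949923) ranked 1033, 1461 and 3007, and Slh (chr2L:2488309-2488654), a gene of vesicle trafficking, 1167, 1280 and 2899. CG16989 (chrX:796196-797229) was chosen after its values were seen. Its 3' UTR peak stood at pooled rank 104 and ranked 94 in replicate 1 and 147 in replicate 3, but no summit of replicate 2 lay within 100 bp.

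Noncoding exons held the largest number of optimal members. The peak in lncRNA:CR45324 (chr2R:9988083-9989172) ranked 99, 97 and 156. The peak in lncRNA:CR46003 (chr3L:10289160-10289867) ranked 100, 112 and 206 and lay 12273 bp from a TSS. Both ranked lower in replicate 3 than in the others. Their signals in the pooled list were 30.6 and 27.4 times the optimal median. The antisense gene asRNA:CR43926 (chr2L:5924970-5925711) ranked 257, 234 and 225, and lncRNA:CR44462 (chr2R:14477363-14477968) 294, 314 and 440. The peak in lncRNA:Vinr (chrX:12750830-12751648) ranked 770, 523 and 248, so it was strongest in replicate 3, and lncRNA:CR44917 (chr2L:21868525-21869484) ranked 416, 387 and 713. Of the 66 optimal noncoding members 12 lay inside another gene.

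**Figure D4:**
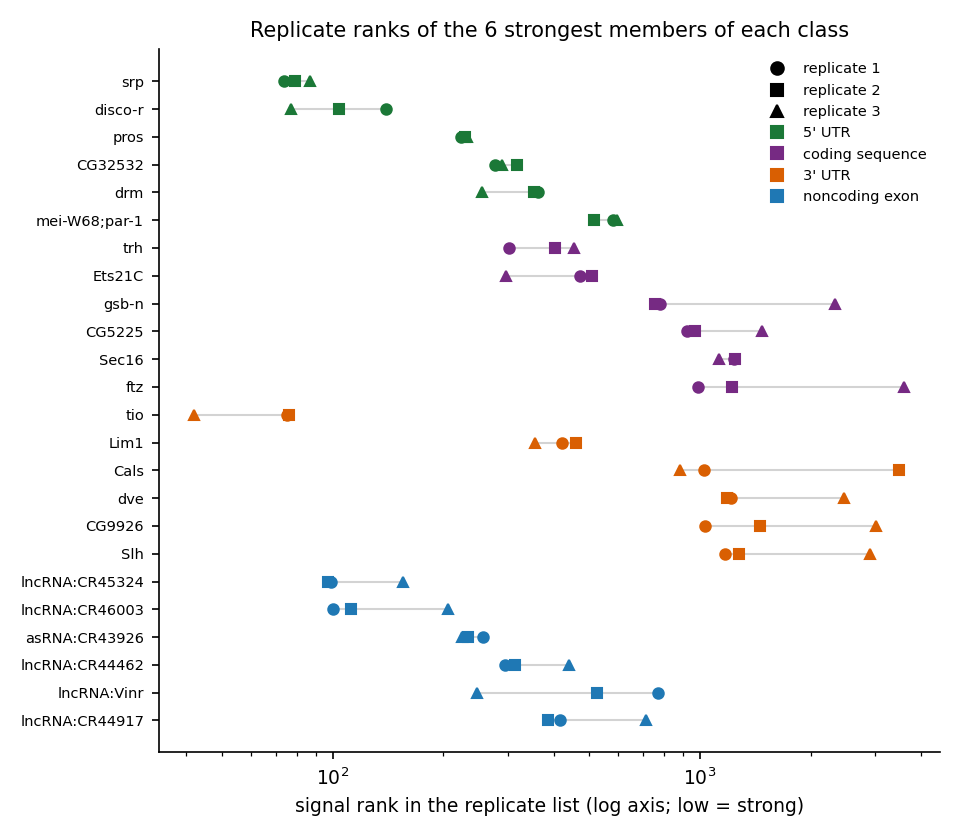
Signal rank in each replicate list (log axis, low is strong) for the 6 members of highest pooled signal per class that were found in all 3 replicates. The 5' UTR points lie between 74 and 595, and the widest gaps, such as ftz at 990, 1221 and 3597, fall in coding sequence and 3' UTRs.

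CCAAT within 50 bp of the summit was more frequent at optimal exonic members than in the windows beside them, in 3 of the 4 classes. Motifs were searched on both strands of a 101 bp window at the summit and in windows of that size centred 500 bp to either side. Over all peaks, CCAAT was present at 22.2% of pooled and 27.0% of optimal summits. Of the optimal exonic members 63 of 191 had it (33.0%, interval 26.4 to 40.1%), beside 16.2% of their side windows and 20.0% of all eligible exonic windows. The 5' UTR share was 44.4% (20 of 45, interval 29.6 to 60.0%), with 17.8% at the sides and 19.1% of all 5' UTR windows. The coding share was 41.7% (15 of 36, interval 25.5 to 59.2%), with 12.5% at the sides and 20.8% of all coding windows. Noncoding exons had 31.8% (21 of 66) against 15.2% at the sides and 19.9% of all such windows. In 3' UTRs the share was 15.9% (7 of 44, interval 6.64 to 30.1%), against 19.3% at the sides and 17.8% of all windows. The intron and intergenic value was 29.1% at the summit and 18.9% at the sides.

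A longer form, in which CCAAT is followed by C or G and then by A or G, was counted as well, and every copy of it is also a copy of CCAAT. It was present at 6.83% of all pooled and 11.4% of all optimal summits. Of optimal coding members 12 of 36 had it (33.3%, interval 18.6 to 51.0%), beside 5.56% of side windows and 6.53% of all coding windows. Of optimal 5' UTR members 10 had it (22.2%), beside 2.22% of side windows and 4.83% of all 5' UTR windows. The counts were 2 of 44 in 3' UTRs (4.55%) and 7 of 66 in noncoding exons (10.6%). Intron and intergenic optimal peaks had it in 13.0% of cases.

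GAGAG was most frequent in the 5' UTR class. It was present at 14.5% of all pooled and 18.0% of all optimal summits. Optimal 5' UTR members had it in 21 of 45 cases (46.7%, interval 31.7 to 62.1%), beside 14.4% of side windows and 14.4% of all 5' UTR windows. The shares were 16.7% for coding sequence, 15.9% for 3' UTRs and 19.7% for noncoding exons, beside 12.3%, 9.90% and 11.3% of all windows of these classes. Of the 191 optimal members 92 had at least 1 of CCAAT and GAGAG, 18 had both and 99 had neither. Those with neither included 32 of the 44 members in 3' UTRs.

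The replicate lists gave the error of these shares. In full lists CCAAT was present at 22.0 ± 0.99% of exonic summits and 18.5 ± 0.52% of side windows (SD, n = 3), a difference of 3.49 ± 1.04 percentage points and higher at the summit in 3 of 3 replicates. With the 6221 strongest peaks of each replicate the shares were 29.4 ± 2.17% and 15.9 ± 2.41%, a difference of 13.5 ± 3.95 points. For coding summits of these shorter lists CCAAT was present in 18 of 48, 17 of 54 and 12 of 24 peaks in replicates 1, 2 and 3, against shares of 16.7%, 13.0% and 6.25% at the sides. The summit share was highest in replicate 3, which had the fewest coding peaks. For 5' UTR summits the CCAAT shares were 30.2%, 41.7% and 45.9%, against 20.8%, 21.9% and 13.5% at the sides. In 3' UTRs CCAAT was present in 9 of 45, 3 of 40 and 6 of 45 peaks, higher than the sides in 1 of 3 replicates, with a difference of -4.03 ± 4.94 points. GAGAG at 5' UTR summits reached 45.1 ± 7.81%, which was 30.1 ± 9.58 points above the sides and higher in 3 of 3 replicates. In these shorter lists it was also higher in 3 of 3 replicates in the other classes. Mean shares were 18.8% against 5.63% at the sides in coding sequence, 16.9% against 8.06% in 3' UTRs and 21.6% against 15.8% in noncoding exons. The exact sign-flip permutation test, two-sided, gave p = 0.25 for each of these differences but 0.5 for CCAAT in 3' UTRs. The smallest p that 3 replicates allow is 0.25. In full lists GAGAG at coding summits was higher than at the sides in 1 of 3 replicates.

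**Figure D5:**
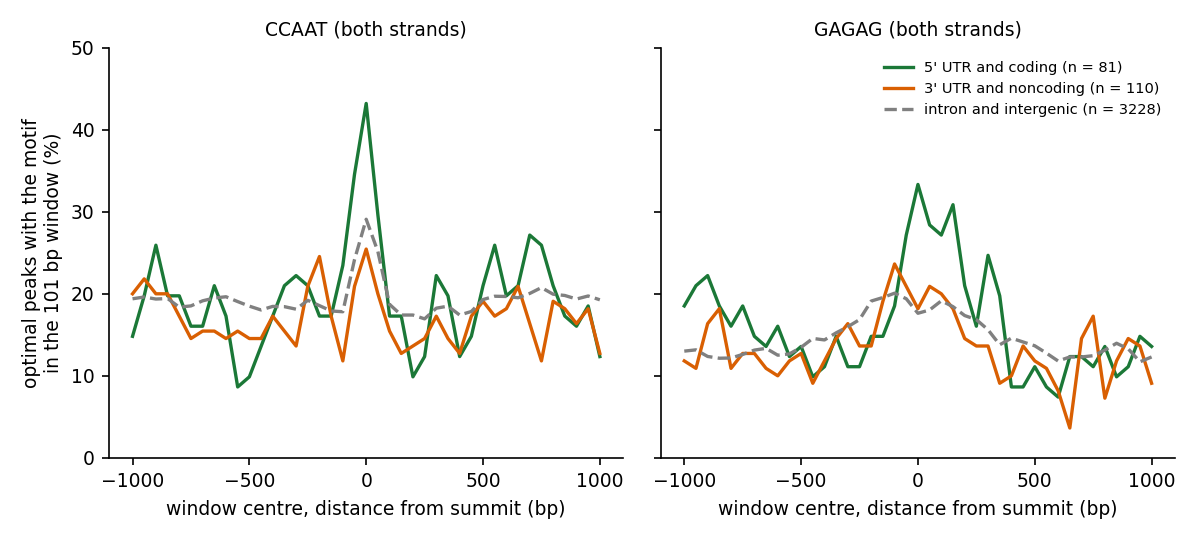
Percent of optimal peaks with CCAAT (left) or GAGAG (right) in a 101 bp window, by distance of the window from the summit (bp), for 5' UTR and coding members, 3' UTR and noncoding members, and intron and intergenic peaks, grouped after the values were seen. At the summit CCAAT reaches 43.2% in 5' UTR and coding members and 25.5% in 3' UTR and noncoding members, beside 29.1% in intron and intergenic peaks. The grouped lines average unlike classes. CCAAT was at 15.9% in 3' UTRs and 31.8% in noncoding exons, and GAGAG at 46.7% in 5' UTRs and 16.7% in coding sequence.

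CCAAT was present at 23.1% of all 1789 pooled members and at 33.0% of the 191 optimal ones, which are those of highest signal. For GAGAG these shares were 14.6% and 24.6%. Within the optimal list, the median rank differed little by CCAAT and more by GAGAG. Optimal members with CCAAT had a median pooled rank of 3274 (63 peaks, 99 to 6097), and those without it 3533 (128 peaks, 58 to 6220). Those with GAGAG had a median of 2507 (47 peaks) and those without it 3598.5 (144 peaks). All optimal members rank within the first 6221, so overlap of the ranges was largely fixed in advance and does not show that ranks were alike.

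Optimal members of 3' UTRs and noncoding exons lay about as deep in their exons as eligible bases in general, and those of 5' UTRs lay deeper. The median distance from summit to exon edge was 161 bp for optimal coding members and 216 bp for all eligible coding bases, and 13 of 36 (36.1%) lay within 100 bp of an edge beside 30.9% of the bases. For optimal 5' UTR members it was 333 bp against 168 bp. For 3' UTRs the medians were 432.5 and 395 bp, and for noncoding exons 440 and 405 bp. The peak interval lay wholly in exons for 29 of 45 optimal 5' UTR, 20 of 36 coding, 33 of 44 3' UTR and 49 of 66 noncoding members. An intron of another transcript crossed the summit in 52 of the 191. This held for 25 of 45 optimal 5' UTR, 6 of 36 coding, 6 of 44 3' UTR and 15 of 66 noncoding members. For 40 of the 191 the interval, though not the summit, came within 500 bp of a TSS, and for 3 it covered one. These 40 were 17 of 45 optimal 5' UTR, 1 of 36 coding, 2 of 44 3' UTR and 20 of 66 noncoding members. Among optimal intron and intergenic peaks the count was 263 of 3228. The part of this in the differences between classes was not tested. The share of members that were optimal ranged from 9.44% on arm 3L to 13.1% on arm X.

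The exonic summits nearest to the limit of 500 bp spanned a wide range of ranks on both sides. Just inside it, and so not members, were exonic summits of lncRNA:CR44539 (498 bp, pooled rank 6909), mthl14 (499 bp, rank 19596) and lncRNA:CR44628 (500 bp, rank 2186, optimal). Just outside it were CG15429 (501 bp, rank 27287), lncRNA:CR44339 (503 bp, rank 667, optimal) and put (503 bp, rank 21468).

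The members fell in 1306 host genes, and the 191 optimal members in 175, of which 117 were protein-coding and 58 noncoding. That is 0.839% of the 13945 protein-coding genes for the optimal list, and 1094 (7.85%) for the pooled list. Most hosts of optimal members had a single one (161), 11 had 2 and 3 had more. The lncRNA:CR43334 gene held 16 members, 4 of them optimal, with pooled ranks of 1491, 2757, 3844 and 3912. The lncRNA:CR45267 gene held 5 members, 4 optimal, of pooled ranks 515, 4438, 4572 and 6210, of which those at 515 and 4572 were found in all 3 replicates. The spen gene, which encodes an RNA-binding protein, held 7 members, 3 of them optimal and in its 5' UTR, with pooled ranks of 2500, 3691 and 4642. Peaks in 1 gene share its chromatin and are not independent.

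Of the 117 protein-coding hosts of optimal members 62 (53.0%) also had an optimal summit within 500 bp of a TSS, against 21.6% of all protein-coding genes. For hosts of any pooled member it was 486 of 1094 (44.4%). For 40 of the 191 optimal members the interval itself reached into that distance, as given above, and the part of this and of gene length in the shares was not tested.

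Genes that pattern the embryo held more exonic members per Mb of eligible exon than protein-coding genes as a whole. Over all protein-coding genes the pooled list had 57.3 exonic members per Mb. Hox genes, which set segment identity, had 507 per Mb, with members in 7 of 8 genes. Segmentation genes had 368 per Mb in 14 of 26 genes, and other homeobox genes 320 per Mb in 26 of 40. In replicates 1, 2 and 3 a member fell in 8, 7 and 5 Hox genes, in 22, 18 and 7 segmentation genes and in 28, 30 and 18 other homeobox genes, lowest in replicate 3 for each list. Over all protein-coding genes the shares were 11.1%, 12.7% and 6.60%, also lowest in replicate 3. The density in the 3 replicates was 487 ± 248 per Mb for Hox genes, 396 ± 239 for segmentation genes and 361 ± 137 for other homeobox genes, beside 74.5 ± 25.5 for all protein-coding genes (SD, n = 3). Most of these peaks were weak: median pooled ranks were 19080, 21299.5 and 16039.5 for the 3 lists, against 21003.5 for all protein-coding hosts. Found in all 3 replicates were 5 of 17 Hox, 5 of 22 segmentation and 14 of 46 other homeobox peaks (29.4%, 22.7% and 30.4%), beside 275 of 1454 peaks (18.9%) over all protein-coding genes. An optimal promoter summit was present in 7 of 8, 24 of 26 and 36 of 40 of these genes.

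An optimal member was present in 1 of 8 Hox genes (12.5%), 2 of 26 segmentation genes (7.69%) and 5 of 40 other homeobox genes (12.5%), against 0.839% of all protein-coding genes. Per Mb of eligible exon the optimal list had 29.8, 33.4 and 48.7 members in these lists and 4.93 in all protein-coding genes. The densities of the lists rested on only 1, 2 and 7 peaks, and 2 of the 7 were summits of the same Lim1 interval. Abd-B, the Hox gene of the posterior abdomen, had 1 in its 5' UTR (chr3R:16933314-16933757), which ranked 3746, 10629 and 7054 in the replicates. Among segmentation genes ftz had the coding peak given above and kni, a gap gene, had 1 in its 3' UTR (chr3L:20692606-20692815), which ranked 1833, 1661 and 2540. The kni ranks were similar in all replicates, whereas Abd-B ranked much lower in replicates 2 and 3 than in replicate 1. Other homeobox genes with an optimal member were pros, Lim1, hbn, lbl and B-H2. The coding peak of hbn (chr2R:20954868-20955082) ranked 1766, 2893 and 4020, weakest in replicate 3.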

How the data were processed

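Peak lists of 3 Nf-YB-GFP replicates, their pooled list and the optimal list were used. Per the file headers and readme texts, the authors called peaks on each replicate, and on the 3 together, against 1 control alignment, and took the optimal list by irreproducible discovery rate. Neither aligner nor caller, with versions, nor the threshold is given in the sources used here, and reads of the control were not used here. The deposited lists hold a signal value per peak, a −log10 q-value and a summit offset. The relation of the signal to depth is not stated and read depth is unknown, so only ranks and multiples of the optimal list's median within 1 list were used. Every list but the optimal one holds 30000 peaks, so list length says nothing of the libraries. Of the optimal peaks, 163 share an interval with another and each summit was counted.

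Exons and TSSs came from Ensembl release 115 on dm6 (18164 genes of the main chromosome arms, 13945 protein-coding), and sequence from the RefSeq copy of the assembly. As a check of the build, 30540 of 30593 annotated start codons (99.8%) read ATG. Transposable elements (5809) were left out. Positions count from 1. No sequence of arm 2R is printed. Ranks follow the signal, shares have exact Clopper-Pearson intervals at 95%, and replicate values were compared by a two-sided exact sign-flip permutation test. Peaks are not replicates, and nothing in the labels says whether the replicates came from separate embryo collections, so the spread may be partly technical. Python 3.11.15, numpy 2.4.6, pandas 2.3.3, scipy 1.17.1 and matplotlib 3.10.9 were used. The classing, TSS distance, nearest-summit and motif functions were checked against known answers on a small made-up arm.

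Named members are the 6 of highest signal per class found in all 3 replicates, hosts with 3 or more optimal members, up to 3 optimal members per gene list, and the 3 exonic summits on either side of 500 bp. Of 237 symbols in 12 gene lists, 8 matched no gene. Members, lists and motifs were chosen with earlier results of these data known. Alternatives changed the TSS distance, summit choice, exon definition, list threshold, matching distance, motif window and the replicates.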

Additional observations from a re-analysis of the deposited data

How the results depend on the processing

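The direction of each density and CCAAT difference over all exonic members held under every alternative tried, and the shares of optimal members by class moved by less than 1 percentage point when coding sequence was placed first. The number of exonic members, 1789, came to 191 with the optimal list and to 83 with its stronger part, cut at the middle rank. The share found in all 3 replicates, 22.0%, was 14.0% with summits within 50 bp, 31.3% within 200 bp, 32.8% by interval overlap of 50% and 5.65% with replicate lists of the optimal length, all by construction stricter or looser matching. Leaving out 1 replicate, the share found in both others was 29.1 to 38.2%. The 175 host genes of optimal members became 112 with a TSS distance of 1000 bp, an alternative chosen after seeing the data. Other additions made after seeing the data changed no result past its limit: counting transposable elements as genes left 1770 members (10.8% optimal), and leaving out members with a higher summit within 500 bp left 1521. The log2 density ratio, -1.35, ran from -1.55 to -1.04 without 1 replicate, and the CCAAT difference, 3.49 points, from 2.94 to 3.98. No paired analysis was possible because the samples form 1 group. Read depth is unknown, and 3 replicates cannot give an exact p below 0.25.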

Other observations

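The other gene lists were small, and are given beside all protein-coding genes, of which 7.85% had a pooled exonic member. Polycomb and Trithorax genes, which keep developmental genes silent or active, had a pooled member in 2 of 26 genes (Su(z)2 and Psc). Their pooled density was 46.7 per Mb of eligible exon, beside 57.3 per Mb in all protein-coding genes. In replicates 1, 2 and 3 it was higher than in all protein-coding genes, at 124, 148 and 70.0 per Mb beside 82.8, 94.9 and 45.9. A member fell in 8, 9 and 2 of the 26 genes in these replicates. Notch pathway genes had one in 4 of 17 genes (86.1 per Mb) and BTB zinc finger genes in 3 of 14 (38.6 per Mb). Neural ion channel and adhesion genes had one in 3 of 28 (12.4 per Mb) and muscle structure genes in 3 of 17 (20.3 per Mb), lists with long exons (11.6 kb of eligible exon per gene in both). Genes of protein folding and stress in the endoplasmic reticulum had one in 2 of 17 (57.3 per Mb) and heat shock genes in 1 of 16 (45.7 per Mb). Over the replicates these 2 lists had 95.6 ± 43.8 and 122 ± 69.8 per Mb, beside 74.5 ± 25.5 in all protein-coding genes (SD, n = 3). Translation factor genes and the 3 NF-Y subunit genes had no pooled member. Of the 17 translation factor genes 2, 1 and 1 held an exonic summit in replicates 1, 2 and 3.

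In these lists optimal members were found in Su(z)2 and Calr. The 3' UTR peak of Su(z)2 (chr2R:13006565-13006772), a Polycomb group gene, ranked 2360, 3446 and 9269 in replicates 1, 2 and 3. The 3' UTR peak of Calr (chr3R:9628580-9629023), which encodes calreticulin, ranked 4133, 7575 and 7666. Both were strongest in replicate 1. The lncRNA:cherub gene, known from neuroblasts, was chosen after its values were seen: its noncoding exon held 2 optimal members, at pooled ranks 1124 and 4146, both found in all 3 replicates.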
